A study of Mus musculus with 4 samples.

Results

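The elastic fibre and microfibril genes were followed in mammary fat pad (MFP) tissue of aged and young mice. They were chosen by name, as the rows of the deposited count table whose symbol was Eln, Fbn1, Fbn2, Fbln1, Fbln2, Fbln5, Mfap2, Mfap4, Mfap5 or Emilin1, which gave 10 genes of 55487, each on 1 row. Total RNA depleted of ribosomal RNA was sequenced from 4 MFP samples of c57b/6j mice, described in the methods as female, 2 aged (14 months) and 2 young (8 weeks), which the labels call biological replicates 1 and 2 of each age. The labels name no engineered allele and no agent in either group, and do not say whether a sample was 1 animal or a pool. The fat pads were cut up and lysed whole, so fewer cells of a type and less RNA per cell could not be told apart.

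Elastic fibres give skin, vessels and fat their recoil. A core of crosslinked elastin is laid down on a scaffold of fibrillin microfibrils, to which small microfibril-associated proteins (MFAPs) and EMILINs bind, and fibulins bridge elastin, fibrillin and the basement membrane. In adipose tissue these genes are known mainly from fibroblasts, adipocyte progenitors and the walls of vessels. Lysyl oxidases crosslink elastin, latent TGF-beta binding proteins (LTBPs) tether the growth factor to microfibrils, and metalloproteinases and cathepsins break the fibres down.

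Counts summed to between 68803304 and 98402403 per library, and 22485 genes, all 10 elastic fibre genes among them, had enough counts to be tested. Adipocyte markers summed to 7328 and 7626 CPM (reads of a gene scaled to a common library size by edgeR) in young and to 9477 and 11774 CPM in aged MFP. The labelled tissue thus carried its markers in every library. Of these markers 7 of 8 were higher in both aged samples, as were 23.3% of all genes. Young replicate 1 stood apart by its lymphocyte markers, at 578 CPM in sum against 3.05 CPM in young replicate 2 and 7.88 and 57.3 CPM in aged replicates 1 and 2. Markers of dividing cells stood at 97.9 CPM in the same library and between 11.4 and 32.8 CPM in the others. Skeletal muscle markers were higher in both aged samples for 8 of 8 genes (23.3% of all genes), with sums of 15810 and 29727 CPM in aged and 4340 and 6844 CPM in young MFP. Fibroblast markers summed to 935 and 765 CPM in aged and 1024 and 865 CPM in young MFP. Of these, 4 of 10 were higher and 2 of 10 lower in both aged samples (23.3% and 22.8% of all genes). Smooth muscle and pericyte markers summed to 1473 and 1892 CPM in aged and 821 and 1191 CPM in young MFP, with 3 of 9 higher in both aged samples (23.3% of all genes). Without Des, which skeletal muscle also expresses and which was dropped after its values were seen, these sums were 965 and 1140 CPM in aged and 699 and 1059 CPM in young MFP and overlapped. Epidermal markers were at most 2.26 CPM in sum, and Flg was at 0 counts in every library. The part of these cell types in the differences below was not tested.

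**Figure D1:**
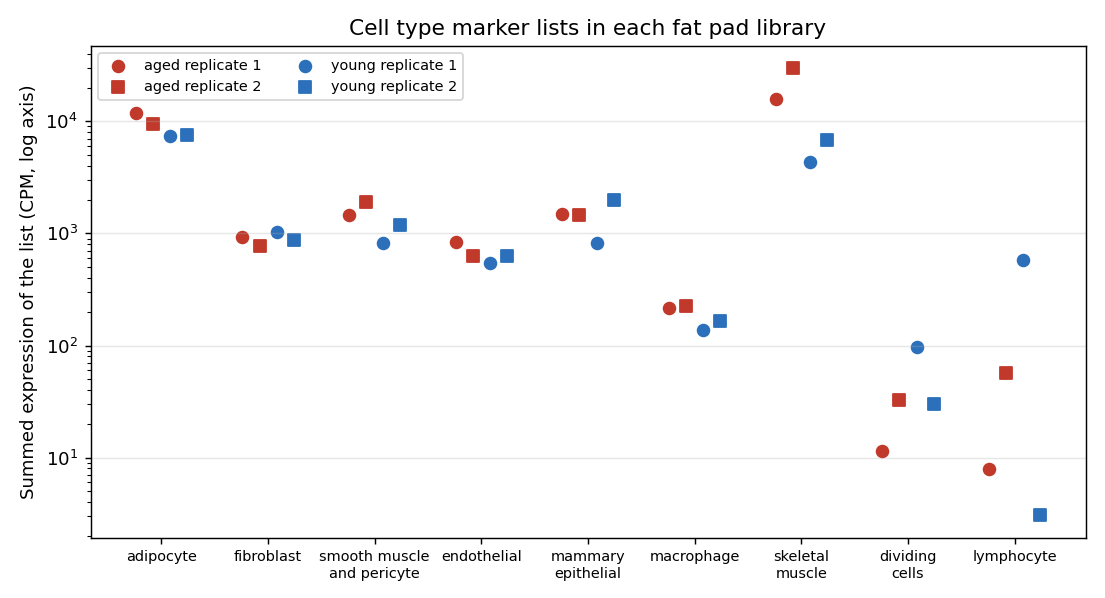
Summed expression of marker lists in CPM on a log axis, 1 point per library, with aged libraries in red, young in blue, replicate 1 as circles and replicate 2 as squares. Lymphocyte markers in young replicate 1 (578 CPM) lie far above the other libraries, and skeletal muscle markers are higher in both aged libraries.

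Per kilobase of exon, the genes fell into a high and a low tier that held in all 4 libraries. Fbln2 (mean 12.8 RPKM, that is CPM per kilobase of exon, range 6.37 to 18.1), Fbn1 (12.0, range 8.94 to 18.0) and Eln (11.6, range 8.41 to 15.2) made up the high tier, and their ranges overlapped. The next gene, Mfap2, had a mean level of 4.25 (range 2.83 to 6.23), below the lowest library of each gene of the high tier. Mfap2, Emilin1 (3.75), Mfap5 (3.40), Fbln5 (2.81) and Fbln1 (2.58) followed, each overlapping its neighbour in the order. Fbn2, the fibrillin known mainly from development, was at 0.842 and Mfap4 at 0.438 RPKM, and these ranges also overlapped. When levels were divided by the longest annotated transcript in place of all exons, Eln moved to the top of the order with 24.4. All exons of Eln span 8.098 kb and its longest transcript 3.853 kb, and the high tier kept its 3 genes. Ranks within single libraries were taken with all exons as length. Fbln2 ranked 1 of 10 in both aged and 3 of 10 in both young samples. Fbln1 ranked 4 in both aged and 8 in both young samples, and Emilin1 ranked 8 in both aged and 4 and 6 in young samples.

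**Figure D2:**
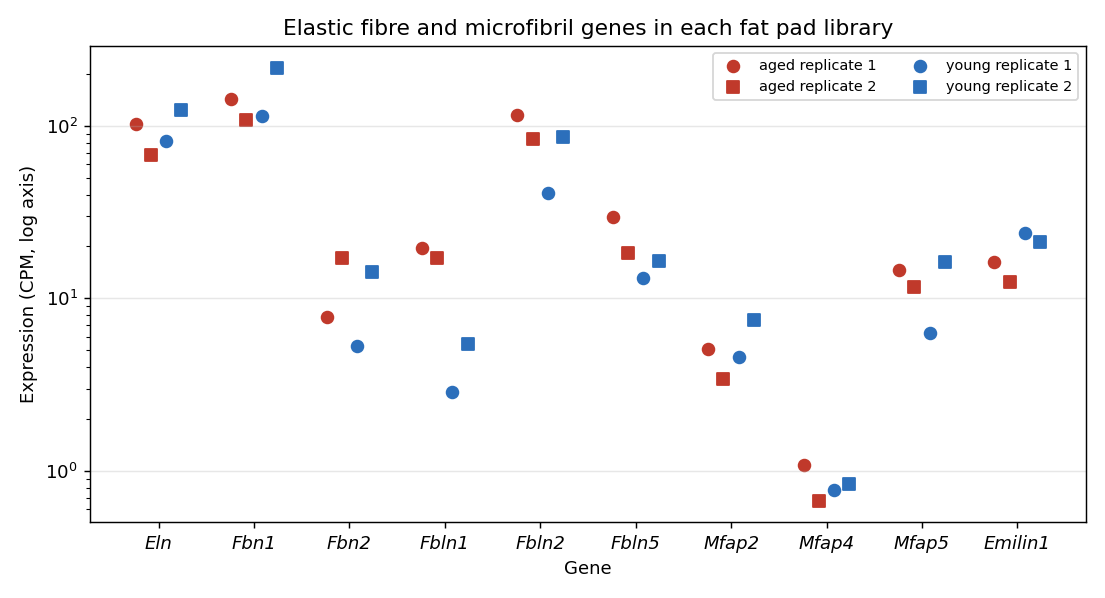
Expression of the 10 genes in CPM on a log axis, 1 point per library, with aged libraries in red, young in blue, replicate 1 as circles and replicate 2 as squares. Fbln1 separates the ages most widely, with 19.7 and 17.1 CPM in aged and 2.87 and 5.42 CPM in young MFP, while most other genes overlap.

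The question of the comparison is whether the scaffold genes of the fat pad differ with age. Fbln1 and Fbln5 were higher in both aged samples, Emilin1 was lower in both, and Eln, Fbn1, Fbn2, Fbln2 and the MFAPs overlapped between the ages. By the sign of the log2 fold change alone, the 3 fibulins, Fbn2, Mfap4 and Mfap5 were positive and the other 4 genes negative. After Benjamini-Hochberg adjustment over all genes tested, the quasi-likelihood test of edgeR passed 0 of the 10 genes and 0 (0% of 22485) of all genes. At an unadjusted p under 0.05 it had 1 of the 10 higher, Fbln1, where 7.24% of all genes were higher, and 1 lower, Emilin1, where 3.31% of all genes were lower. DESeq2, the tool that the methods of the study name, called Fbln1 higher at an adjusted p under 0.05 and called none of the 10 lower (0 genes), against 3.15% of the 22485 genes called higher and 0.663% called lower. Both aged samples lay above both young samples for 2 of the 10 genes, Fbln1 and Fbln5 (23.3% of all genes), and below them for 1, Emilin1 (22.8% of all genes). Neither count without overlap exceeded the share among all genes.

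Fbln1 encodes fibulin-1, a calcium-binding protein of basement membranes and elastic fibres (ENSMUSG00000006369, chromosome 15, 85205949 to 85286535 of GRCm38, plus strand). Its level was 19.7 and 17.1 CPM in aged replicates 1 and 2, and 2.87 and 5.42 CPM in young replicates 1 and 2. The lowest aged sample was thus above the highest young sample, and the spread within either age was small beside the distance between the ages. Means were 18.4 ± 1.86 CPM in aged and 4.14 ± 1.81 CPM in young MFP (SD, n = 2 each). Fbln1 was 4.44-fold higher in aged MFP, or 2.15 on the log2 scale with a standard error (SE) of 0.39, with an adjusted p of 0.361 from edgeR and 5.12e-05 from DESeq2. Dropping any 1 library kept the log2 estimate of Fbln1 between 1.76 and 2.69, the lowest value being that without young replicate 1, the library with high lymphocyte markers.

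Fbln5 and Fbln2 encode the other fibulins of the list, and their differences were smaller. Fbln5, needed for elastic fibre assembly in mice (ENSMUSG00000021186, chromosome 12, 101746565 to 101819055, minus strand), was at 29.7 and 18.4 CPM in aged and 13.2 and 16.5 CPM in young MFP. The ages did not overlap for Fbln5, but the lower aged sample exceeded the higher young sample by less than the aged samples differed from each other, and the log2 fold change was 0.70 (SE 0.31, edgeR adjusted p = 0.508). With total counts as the only scaling the ages overlapped for Fbln5, at 28.9 and 16.7 CPM in aged and 13.9 and 17.7 CPM in young MFP. Fbln2, a fibulin of the perivascular matrix (ENSMUSG00000064080, chromosome 6, 91212455 to 91272540, plus strand), was at 115 and 83.6 CPM in aged and 40.6 and 86.5 CPM in young MFP. Fbln2 overlapped, since young replicate 2 was above aged replicate 2, and its log2 fold change was 0.65 (SE 0.42, edgeR adjusted p = 0.573). Without young replicate 1 the log2 fold change was at its lowest for Fbln2, 0.20, and without young replicate 2 at its highest, 1.30. Without aged replicate 1 that of Fbln5 was 0.30.

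The promoters of the fibulins, which all had positive log2 fold changes, and of Emilin1, which had the most negative one of the list, are shown to set their sequences side by side. RefSeq's promoter table on GRCm38.p6 held 6 of the 10 genes, and the 250 bases before the annotated start nearest to the 5′ end of the gene in GENCODE are printed 5′ to 3′ on the gene's strand. They lie at chr15:85205699-85205948 (Fbln1, plus), chr6:91212514-91212763 (Fbln2, plus), chr12:101819120-101819369 (Fbln5, minus) and chr5:30913536-30913785 (Emilin1, plus). The windows of Fbln1 and Fbln5 lie upstream of the GENCODE gene. Those of Fbln2 and Emilin1 lie inside it, downstream of its 5′ end, because the RefSeq start used is further in. Capitals mark, on either strand, the GC box GGGCGG, the SMAD element CAGAC and the E-box CACGTG.
Fbln1: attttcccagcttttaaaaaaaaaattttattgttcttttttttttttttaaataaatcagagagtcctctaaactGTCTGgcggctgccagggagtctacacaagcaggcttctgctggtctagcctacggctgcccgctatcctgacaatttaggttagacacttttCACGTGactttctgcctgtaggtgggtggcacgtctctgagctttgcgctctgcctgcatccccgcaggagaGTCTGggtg
Fbln2: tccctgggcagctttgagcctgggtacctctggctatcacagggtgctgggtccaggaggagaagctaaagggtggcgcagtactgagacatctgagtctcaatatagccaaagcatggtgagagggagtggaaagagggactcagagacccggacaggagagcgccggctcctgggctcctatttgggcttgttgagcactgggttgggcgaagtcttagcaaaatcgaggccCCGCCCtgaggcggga
Fbln5: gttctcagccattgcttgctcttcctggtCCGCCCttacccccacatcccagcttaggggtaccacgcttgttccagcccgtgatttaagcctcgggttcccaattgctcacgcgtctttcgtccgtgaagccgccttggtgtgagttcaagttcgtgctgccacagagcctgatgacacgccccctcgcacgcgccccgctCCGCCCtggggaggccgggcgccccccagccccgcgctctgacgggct
Emilin1: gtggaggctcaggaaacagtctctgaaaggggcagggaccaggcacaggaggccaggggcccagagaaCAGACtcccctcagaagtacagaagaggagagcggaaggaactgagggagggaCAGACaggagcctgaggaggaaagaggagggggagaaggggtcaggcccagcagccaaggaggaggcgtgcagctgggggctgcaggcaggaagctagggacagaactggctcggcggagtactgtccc
The GC box occurred 1 time in the Fbln2 and 2 times in the Fbln5 window, and 1 time in that of Fbn1, which is not printed, and 32.7% of all 32817 promoter windows of this length held it. The SMAD element occurred 2 times in Fbln1, 2 times in Emilin1 and 1 time in Mfap2, also not printed, against 42.2% of all windows with at least 1. The E-box occurred 1 time, in Fbln1 (6.02% of all windows). The TATA box TATAAA (12.4% of all windows) and the AP-1 element TGANTCA (6.75%) matched in none of the 6 windows searched (0 matches), those of Fbn1 and Mfap2 included. A match is a match of letters and not a bound site.

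Emilin1 encodes an elastin-associated glycoprotein found at the interface of elastin and microfibrils (ENSMUSG00000029163, chromosome 5, 30913402 to 30921277, plus strand). It was at 16.3 and 12.4 CPM in aged and 24.1 and 21.3 CPM in young MFP, so both aged samples were below both young samples. The log2 fold change was -0.66 (SE 0.22, adjusted p = 0.46 from edgeR and 0.226 from DESeq2), and it stayed between -0.88 and -0.48 with each library left out. Means were 14.4 ± 2.74 CPM in aged and 22.7 ± 1.93 CPM in young MFP (SD, n = 2 each). Emilin1 was also the 1 gene of the list that young replicate 1 expressed above young replicate 2.

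Eln, the gene of tropoelastin (ENSMUSG00000029675, chromosome 5, 134702593 to 134747323, minus strand), was at 103 and 68.1 CPM in aged and 81.9 and 123 CPM in young MFP. The young samples lay on either side of aged replicate 1, and aged replicate 2 was the lowest. The log2 fold change of Eln was -0.26 (SE 0.31, edgeR adjusted p = 0.731), and it came to 0.07 without young replicate 2. Gm30003 on the other strand shares 3.3% of the exon bases of Eln. Fbn1, the main fibrillin of adult tissue (ENSMUSG00000027204, chromosome 2, 125300594 to 125507993, minus strand), was at 144 and 108 CPM in aged and 113 and 218 CPM in young MFP, an aged over young difference of -0.39 on the log2 scale (SE 0.37, edgeR adjusted p = 0.673). Young replicate 2 alone lay above the other 3 libraries, and without it the value for Fbn1 was 0.16. Gm9913 on the other strand shares 20.1% of the exon bases of Fbn1, but it had between 14 and 43 counts, against at least 9302 for Fbn1.

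Fbn2 did not follow the ages, and it departed from the other genes between the aged replicates (ENSMUSG00000024598, chromosome 18, 58008623 to 58210487, minus strand). It was at 7.79 and 17.1 CPM in aged and 5.28 and 14.3 CPM in young MFP, so that the replicate 2 libraries of both ages were high and the replicate 1 libraries low. The log2 fold change was 0.35 (SE 0.65, edgeR adjusted p = 0.834), and it ranged from -0.33 to 1.25 with each library left out. As a share of both fibrillins per exon length, Fbn2 made up 4.74% and 12.7% in aged and 4.10% and 5.68% in young MFP.

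The MFAP genes showed no difference larger than the spread between replicates. Mfap2, whose product MAGP-1 binds fibrillin and TGF-beta family ligands (ENSMUSG00000060572, chromosome 4, 141010418 to 141015984, plus strand), was at 5.06 and 3.42 CPM in aged and 4.56 and 7.55 CPM in young MFP. The estimate was -0.51 on the log2 scale (SE 0.39, edgeR adjusted p = 0.606). Mfap5, whose product MAGP-2 is related to MAGP-1 (ENSMUSG00000030116, chromosome 6, 122505845 to 122529290, plus strand), was at 14.6 and 11.7 CPM in aged and 6.34 and 16.2 CPM in young MFP. The estimate was 0.22 on the log2 scale (SE 0.51, edgeR adjusted p = 0.867). Mfap5 spanned its whole range within the young samples, and the estimate without young replicate 1 was -0.31. Mfap4, a fibrinogen-related protein that binds elastin and collagen (ENSMUSG00000042436, chromosome 11, 61485431 to 61488900, plus strand), was barely expressed, with 88 and 60 counts in aged and 64 and 62 counts in young MFP. Its log2 fold change of 0.11 (SE 0.40, edgeR adjusted p = 0.919) became -0.06 when libraries were scaled by total counts only, and 89 of its exon bases are shared with Mapk7 on the other strand, which had 1365 to 1556 counts.

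**Figure D3:**
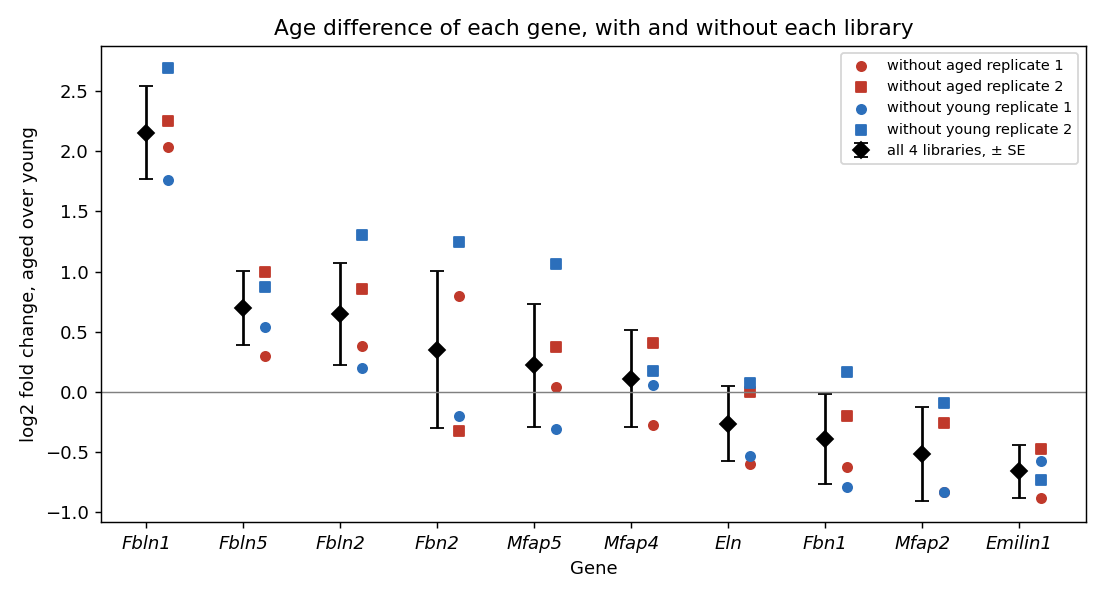
Log2 fold change of each gene in aged over young MFP, with black diamonds and bars for the edgeR estimate and its SE from all 4 libraries, and coloured points for the estimate without 1 library. Fbln1 lies between 1.76 and 2.69 and Emilin1 between -0.88 and -0.48 in every such fit, while Eln, Fbn1, Fbn2, Mfap4 and Mfap5 cross 0.

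Ratios between genes of the same library do not depend on how libraries are scaled, so the makeup of the gene set was compared next. The 3 fibulins together made up 41.9% and 41.7% of the summed level of the 10 genes per exon length in aged MFP, and 22.6% and 25.7% in young MFP. Elastin made up 19.8% and 17.8% in aged against 25.5% and 22.7% in young MFP, the fibrillins 19.4% and 21.6% against 24.6% and 28.4%, the MFAPs 13.7% and 13.6% against 15.0% and 16.7%, and Emilin1 5.15% and 5.32% against 12.3% and 6.46%. None of these 5 shares overlapped between the ages. Most of the fibulin share was Fbln2, whose own level overlapped between the ages. Fbln2 made up 28.2% and 27.7% of the sum of the 10 genes in aged and 16.1% and 20.3% in young MFP. Fbln1 made up 7.04% and 8.28% against 1.66% and 1.85%, and Fbln5 6.69% and 5.63% against 4.82% and 3.56%. Among the fibulins alone, Fbln1 made up 16.8% and 19.9% in aged and 7.34% and 7.22% in young MFP. Shares are tied to each other, so a larger share of fibulins lowers the others by construction, and with 2 samples against 2 no exact two-sided permutation test of a share can give a p below 0.333. The difference in the fibulin share was 17.7 percentage points, between 16.1 and 19.2 with each library left out, and 16.5 with the longest transcript as length.

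**Figure D4:**
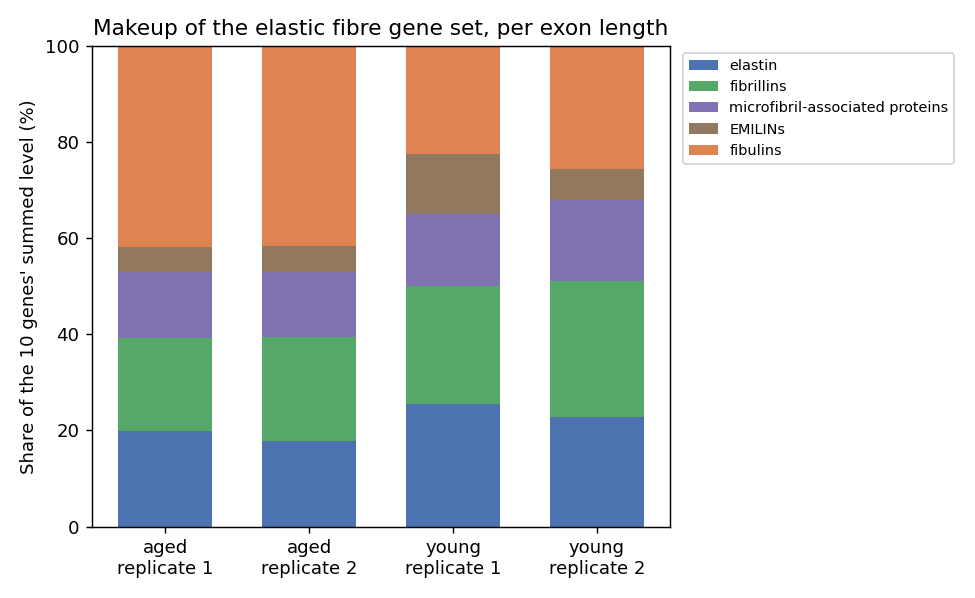
Share of each group of genes in the summed level of the 10 genes per kilobase of exon, in percent, 1 bar per library. Fibulins take 41.9% and 41.7% in aged MFP, and 22.6% and 25.7% in young MFP.

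Relative to Eln in the same library, 5 of the other 9 genes were higher in both aged than in both young samples, where 26.3% of all genes were, and 1 of 9 was lower, where 4.66% of all genes were. Most genes of the list differed between replicates in the same direction as Eln, which a ratio to Eln partly removes. The shares over all genes are thus not a like background for these counts. Fbln1 stood at 0.356 and 0.466 of the per-length level of Eln in aged and at 0.0649 and 0.0816 in young MFP. Fbln2 stood at 1.42 and 1.56 of Eln in aged and at 0.631 and 0.892 in young MFP, with all exons as length. Whether Fbln2 exceeds Eln depends on that length. With the longest transcript in its place, mean levels were 17.0 for Fbln2 and 24.4 for Eln. The ratio of Fbln5 to Eln was 0.338 and 0.317 in aged and 0.189 and 0.157 in young MFP, and that of Mfap5 to Eln was 0.321 and 0.387 against 0.175 and 0.297. The fifth gene was Mfap4, whose ratios of 0.0441 and 0.0417 in aged against 0.0402 and 0.0287 in young MFP rest on 60 to 88 counts per library. Mfap2 was the gene with the lower ratio to Eln, at 0.329 and 0.336 in aged and 0.373 and 0.41 in young MFP. Fbn1 kept to Eln, with ratios of 0.934 and 1.06 in aged and 0.926 and 1.18 in young MFP, which overlapped. Between both MAGP genes, the ratio of Mfap5 to Mfap2 was 0.974 and 1.15 in aged and 0.469 and 0.726 in young MFP.

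Within an age, most of the genes differed between the replicates in the same direction. Aged replicate 1 was above aged replicate 2 for 9 of the 10 genes, Fbn2 being the exception, with a median log2 difference of 0.43, while 49.3% of all genes were higher in that library. Young replicate 2 was above young replicate 1 for 9 of the 10 genes, Emilin1 being the exception, with a median log2 difference of 0.82, while 50.5% of all genes were higher there. The median log2 fold change of the 10 genes between the ages was 0.16, against -0.04 for all genes tested. That median rested on single libraries, at -0.25 without young replicate 1, -0.12 without aged replicate 1 and 0.52 without young replicate 2, and it was -0.0087 with scaling by total counts only. Lymphocyte and dividing cell markers were high in young replicate 1, where Fbn2, the fibulins and Mfap5 had their lowest CPM. Eln, Fbn1, Mfap2, Mfap4 and Emilin1 had theirs in aged replicate 2, where lymphocyte markers summed to 57.3 CPM. The part of these cells in the values of the genes was not tested.

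Other genes of the fibre pathway were taken as lists. Of 27 genes of assembly and crosslinking 26 were tested, with a median log2 fold change of 0.39, and 21 were higher and 5 lower in aged MFP. Both aged samples lay above both young ones for 10 genes and below for 3, where 23.3% and 22.8% of all genes did. The median was 0.12 without young replicate 1, 0.14 without aged replicate 1, 0.66 without aged replicate 2, 0.79 without young replicate 2 and 0.21 with scaling by total counts only. Lysyl oxidase (Lox), which crosslinks elastin and collagen, was at 48.8 and 32.2 CPM in aged and 16.2 and 15.8 CPM in young MFP. The log2 fold change of Lox was 1.34 (SE 0.26, adjusted p = 0.37 from edgeR and 0.00196 from DESeq2). Its paralog Loxl1, tied to elastin upkeep, overlapped between the ages (79.0 and 35.4 against 40.0 and 50.6 CPM), as did Efemp2, which encodes fibulin-4 (22.4 and 24.5 against 15.2 and 28.5 CPM). Ltbp4, an LTBP that aids elastin deposition, was at 279 and 211 CPM in aged and 149 and 180 CPM in young MFP (log2 fold change 0.57, SE 0.21). The largest differences of the list were lower in aged MFP. Vcan, the proteoglycan versican, was at 12.0 and 14.6 CPM in aged and 25.0 and 77.0 CPM in young MFP (log2 fold change -1.94, SE 0.60). Adamts17, a protease of the family tied to microfibrils, was at 2.63 and 2.30 CPM in aged and 7.28 and 11.2 CPM in young MFP (log2 fold change -1.90, SE 0.32). DESeq2 called 3 genes of the list higher (Lox, and Dcn and Mmrn1, named after their values were seen) and 2 lower (Vcan and Adamts17), against 3.15% and 0.663% of all genes. The test of edgeR called none of the list (0 genes), as it called 0 of all 22485 genes. At an unadjusted p under 0.05 it had 5 of the 26 higher and 2 lower, where 7.24% and 3.31% of all genes were.

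Of 13 elastin-degrading proteases 11 were tested, with a median log2 fold change of 0.76, and 9 had both aged samples above both young (23.3% of all genes). Macrophage markers, known from cells that express several of these proteases, summed to 215 and 224 CPM in aged and 138 and 166 CPM in young MFP. Of these markers 3 of 5 were higher in both aged samples (23.3% of all genes), and the part of macrophages in the protease values was not tested. Mmp9, the gelatinase B gene, was at 8.35 and 9.49 CPM in aged and 3.37 and 3.04 CPM in young MFP (log2 fold change 1.48, SE 0.23, adjusted p = 0.36 from edgeR and 4.23e-06 from DESeq2). Prtn3, a neutrophil protease gene, had the largest log2 fold change, 1.61, but shares exon bases with Plppr3 on the other strand, whose counts of 3806 and 1662 in aged and 732 and 486 in young MFP were also higher in both aged samples. Of 9 protease inhibitors 8 were tested, with a median of 0.81, and 5 lay above and 1 below without overlap (23.3% and 22.8% of all genes). Timp3, the matrix-bound tissue inhibitor, was at 507 and 402 CPM in aged and 177 and 237 CPM in young MFP (log2 fold change 1.13, SE 0.24). Timp4, an inhibitor known from fat, was at 116 and 43.7 CPM in aged and 30.3 and 30.1 CPM in young MFP (log2 fold change 1.40, SE 0.51). Timp3 shares exon bases with Syn3 and Timp4 with Syn2, each on the other strand. Syn3 had 228 to 368 counts, against at least 14490 for Timp3, and Syn2 had 5795 and 2885 counts in aged and 5432 and 10598 in young MFP, against 9499 and 3889 and then 2485 and 2224 for Timp4. Reads of such partners could not be told apart because the strand setting of the counting is not given in the sources used here. The median of the proteases became 0.59 and that of the inhibitors 0.64 with scaling by total counts only, and that of the inhibitors was 0.51 without young replicate 1 and 1.03 without young replicate 2.

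Among the 14 integrin and TGF-beta family genes the median was 0.35 on the log2 scale, with 9 higher and 5 lower in aged MFP by sign alone. Both aged samples lay above both young ones for 6 genes and below for 1 (23.3% and 22.8% of all genes), and 7 overlapped. DESeq2 called 1 higher and 1 lower, against 3.15% and 0.663% of all genes. The median was 0.072 without young replicate 1, 0.78 without young replicate 2 and 0.17 with scaling by total counts only. Itgb3, a subunit of an integrin that binds fibrillin-1 and other ligands, was at 16.9 and 14.6 CPM in aged and 49.7 and 34.5 CPM in young MFP (log2 fold change -1.42, SE 0.25). Tgfb2, a ligand held by LTBPs, was at 14.0 and 13.4 CPM in aged and 5.01 and 9.68 CPM in young MFP (log2 fold change 0.90, SE 0.38). The 6 fibrillar collagen genes were lower in both aged samples in 6 of 6 cases (22.8% of all genes), with a median of -1.09. Col1a1 was at 503 and 350 CPM in aged and 1213 and 1368 CPM in young MFP, Col3a1 at 1009 and 696 CPM against 1702 and 2012 CPM, and Col5a3 at 199 and 171 CPM against 486 and 391 CPM. DESeq2 called 4 of the 6 collagens lower (0.663% of all genes) and edgeR none (0 genes, with 5 lower at an unadjusted p under 0.05, as were 3.31% of all genes).

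**Figure D5:**
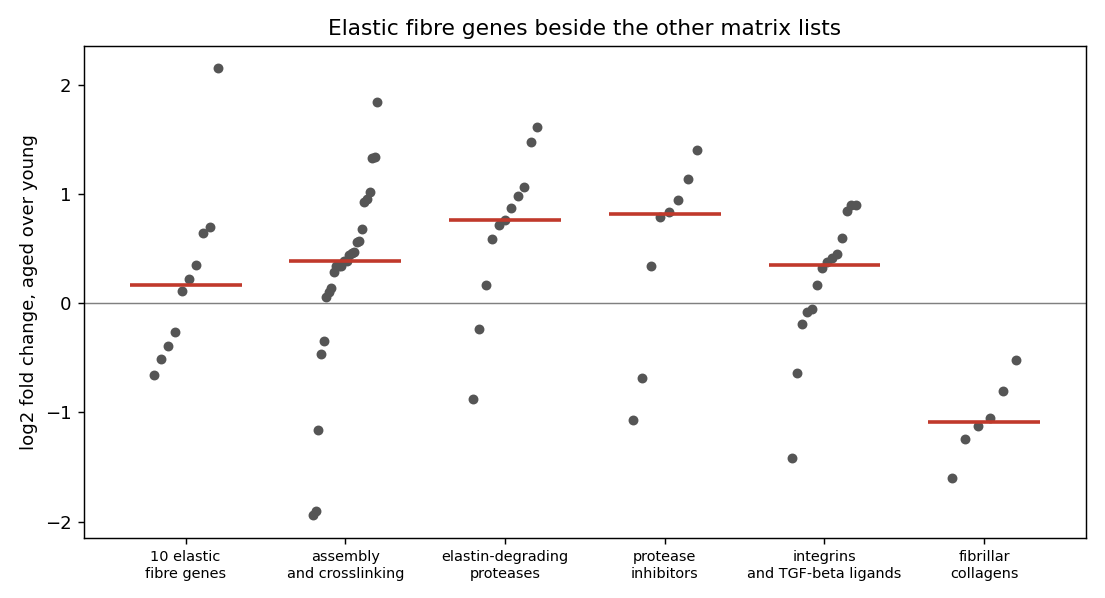
Log2 fold changes in aged over young MFP of the 10 elastic fibre genes and of 5 lists of related matrix genes, 1 point per gene tested, with the median as a red line. The elastic fibre genes spread on either side of 0 around a median of 0.16, while the fibrillar collagens all lie below 0 with a median of -1.09.

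The genes nearest to Eln and Fbn1 in pattern were found over the 4 libraries among 10620 other genes with a mean of at least 10 CPM, by the root mean square distance of centred log2 CPM. For Eln these were Zfp810 (distance 0.037), Rev3l (0.037) and Mmp14 (0.056), the last a membrane-type metalloproteinase of the protease list, at 103 and 63.0 CPM in aged and 74.9 and 121 CPM in young MFP. For Fbn1 they were Gm43323 (0.021), Lpin3 (0.033) and Cacna1c (0.037). With 4 points per gene, 22 genes lay within 0.1 of Eln and 29 within 0.1 of Fbn1.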

How the data were processed

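Strand-specific libraries of total RNA depleted of ribosomal RNA were made from 2 aged and 2 young samples of whole MFP tissue. The table the authors deposited holds whole-number read counts for each gene, not normalized or pooled; the submitters' processing notes list featureCounts, R 3.6.1, GRCm38 and hg38, while the aligner, annotation release and strand setting are not given in the sources used here. Samples were grouped by their titles. Counts were filtered with filterByExpr, scaled by TMM and tested with edgeR 4.0.16 (glmQLFit and glmQLFTest, R 4.3.3) with age as the only term and Benjamini-Hochberg adjustment over 22485 genes at 0.05. DESeq2 1.42.0 was an alternative. The standard error was taken as the absolute log2 fold change over root F. With 2 samples a group, p-values measure the spread between these samples only. Log2 CPM used a prior count of 2. Total counts were 83936413 and 98402403 (aged) and 77661766 and 68803304 (young), so 3 counts equal at most 0.0407 CPM, counting error only. Coordinates, exon lengths (union of exons) and overlapping genes come from GENCODE M21, which holds 55227 of the 55487 identifiers, and promoters from RefSeq.

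The genes of the list and the pathway and marker lists were chosen with earlier results of these data known, as were the ratios and shares. Named were all 10 genes, Lox, Loxl1, Efemp2, Ltbp4, Col1a1 and Col3a1, the 2 genes with the largest absolute log2 fold change of each pathway list, and the 3 genes nearest to Eln and Fbn1. Other scalings, filters, gene exclusions, the replicate block and leaving out each sample were tried. The code was tested on simulated data.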

Additional observations from a re-analysis of the deposited data

How the results depend on the processing

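With other scalings, filters or gene exclusions, edgeR called 0 of the 10 genes, and it called 0 of all genes tested in each of these settings too. DESeq2 called 1 of the 10, Fbln1. With each library left out log2 fold changes lay between -0.60 and 0.073 for Eln, -0.79 to 0.16 for Fbn1, -0.33 to 1.25 for Fbn2, -0.28 to 0.41 for Mfap4 and -0.31 to 1.06 for Mfap5, so the direction of these 5 genes rests on single libraries, while the other 5 kept theirs. Scaling by total counts only, which moved the median of all genes from -0.04 to -0.22, gave -0.059 for Mfap4. Between 5 and 8 of the 10 genes did not overlap between the ages with a library left out, since an age with 1 sample has no spread. The fibulin share differed by 15.2 percentage points with counts not divided by length, an alternative chosen after seeing the data. Without young replicate 2, 6688 genes had an unadjusted p under 0.05 in edgeR, against 2371 with all libraries. DESeq2 called 865 genes of 34805.

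The labels do not say whether samples with the same replicate number were handled together. Deviations of samples with the same number correlated at -0.48, and those of samples with different numbers, the crossed pairing, at 0.48. Within an age the deviations are exact opposites, so each of these values fixes the other. The correlation therefore cannot decide whether the replicate number is more than a label. With the number as a replicate block edgeR called 0 of the 10 genes and 0 of all genes (1346 at an unadjusted p under 0.05), and with the crossed pairing, added after seeing the data, 0 and 0 (2494). At an unadjusted p under 0.05, 1 of the 10 genes was higher and 0 lower with the replicate block, and 3 higher and 0 lower with the crossed pairing. Emilin1 had an unadjusted p of 0.0375 in edgeR without a block, 0.0625 with the replicate block and 0.0533 with the crossed pairing.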

Other observations

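The levels were also set against matrix and fibroblast genes of the same library, with pairs chosen after the data were seen. Fibroblast markers went both ways, with 5 of 10 higher and 5 lower by log2 fold change, so each gene was set against all 10. Among the lower, Thy1 (171 against 26.8 CPM), Dpp4 (49.0 against 13.2) and Cd55 (89.6 against 39.5) were higher in young replicate 1 than in young replicate 2. Col15a1 differed less (415 against 382 CPM), and Pi16 was higher in young replicate 2 (12.1 against 68.5 CPM). The part of lymphocytes, whose markers were high in young replicate 1, in these values was not tested. The ratio of Fbln1 was higher in both aged samples for 10 of 10 markers, that of Fbln2 for 3, of Fbln5 for 3 and of Mfap5 for 2. Ratios of Emilin1 and Mfap2 were lower in both for 5 markers each, and those of Eln and Fbn1 for 4 each. Mfap4 was higher against 1 marker and lower against 3, Fbn2 overlapped for all 10, and the rest overlapped. No share over all genes stands beside these counts, so whether they are unusual cannot be said. Pdgfra, 1 of the markers that were higher and a receptor of fibroblasts and adipocyte progenitors, was at 135 and 97.4 CPM in aged and 60.1 and 80.4 CPM in young MFP. The per-length ratio of Fbln1 to Pdgfra was 0.336 and 0.403 in aged and 0.11 and 0.155 in young MFP, while that of Fbln5 overlapped (0.319 and 0.274 against 0.319 and 0.297). Eln stood lower against Pdgfra in aged MFP (0.943 and 0.865 against 1.69 and 1.90) and higher against Col1a1 (0.166 and 0.158 against 0.0547 and 0.0729). These ratios were not tested.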
